A study of Mus musculus with 4 samples.

Results

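Fatty acid synthesis, desaturation and elongation were followed here through 10 genes in mouse liver: Acly, Me1, Fasn, Thrsp, Scd1, Scd2, Fads1, Fads2, Elovl3 and Elovl6. The genes were taken by name, from probes that the platform annotation gives to 1 of these symbols alone. All 10 had a probe, out of 13544 named genes measured on every array. Of their 14 probes, all 14 had a value on all 4 arrays; 7 genes had 1 probe and 3 genes had several.

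The arrays compared liver RNA of male C57Bl/6J mice on an experimental diet, in Cy5, with liver RNA of male C57Bl/6J mice on standard chow, in Cy3. The diet was an atherogenic diet, or the atherogenic diet combined with high fat, eaten for 6 or for 24 weeks, which gives 4 conditions with 1 array each. The labels name chow of the same duration for 3 of the arrays and chow of no stated duration for the atherogenic 6-week array. Not given in the sources used here are diet composition, the number of mice behind an RNA and any sharing of chow RNA between arrays. An array without added fat is called plain below. Values are log2 ratios of diet over chow, averaged over the probes of a gene. The deposited values carry no stated base and were read as log10; were they base 2, every log2 value printed here would be 3.32 times too large, while adjusted p-values would not move. Direction follows the dyes in the labels. Ratios hold no expression level, so neither the liver identity of the RNA nor the abundance of a member can be read from them. No array swapped the dyes, so a preference of a probe for Cy5 and a change by diet cannot be told apart.

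In liver, citrate exported from mitochondria is cut by ATP citrate lyase into acetyl-CoA, which fatty acid synthase joins into palmitate with reducing power that comes in part from malic enzyme. Stearoyl-CoA desaturases place the first double bond in saturated chains, the front-end desaturases Fads1 and Fads2 act on polyunsaturated chains, and Elovl enzymes lengthen them. Many of these genes are activated by the sterol-regulated factor SREBP-1c and by carbohydrate and thyroid hormone signals, and polyunsaturated fat in the diet is known to lower them.

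The members did not move as 1 block. Elovl3 was far below chow on all 4 arrays, Scd1 was above chow on all 4, and a set led by Thrsp, Scd2 and Fads2 stood higher with added fat than without it. Fasn, the pathway's central enzyme, stayed within a narrow range. The plot of members by array shows these patterns.

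**Figure D1:**
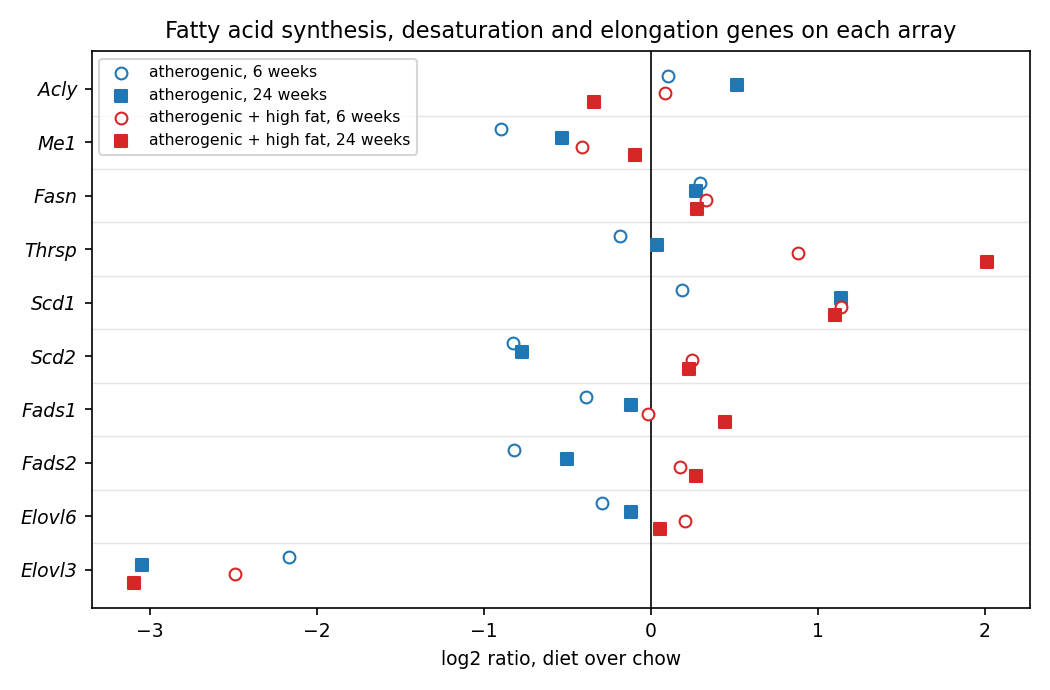
Log2 ratio of diet over chow (x axis) for each member (rows) on the 4 arrays; circles are 6 weeks, squares 24 weeks, blue the plain atherogenic diet and red the diet with high fat. Elovl3 lies at or below -2.17 on every array, and the 2 red points of Thrsp, Scd2 and Fads2 lie to the right of both blue points.

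The first comparison asked which members differed from chow over the 4 arrays. Of the 10, 1 was higher (Scd1) and 1 lower (Elovl3) at an adjusted p of 0.05; among all genes 6.27% were higher and 5.80% lower. The median of the members was -0.029, beside 0.005 for all genes. With 4 conditions as the only spread, these p-values measure differences between conditions, not between mice.

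Elovl3, the elongase of saturated and monounsaturated very long chains, stood at -2.17 and -3.05 on the plain 6-week and 24-week arrays and at -2.49 and -3.09 on the high-fat 6-week and 24-week arrays. All 4 arrays were low, and both 24-week values lay below both 6-week values. Elovl3 was the 6th lowest of 13544 genes on the plain 6-week array, the 9th on the high-fat 6-week array, the 5th on the plain 24-week array and the 4th on the high-fat 24-week array. Its mean fell by 2.70 ± 0.17 on the log2 scale (limma SE, 4 arrays; adjusted p = 0.00126), a 6.50-fold difference. The call held without each of the 4 arrays in turn, with adjusted p-values from 0.00129 to 0.0206.

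Elovl3 is known to be higher in male than in female liver. Of 13 measured genes on a list with that property, 6 were lower than chow and 0 higher, with a median of -0.66. Among all genes 5.80% were lower and 6.27% higher. Moxd1 and Nat8 had means above chow, at 0.11 and 0.14, and were not called. With added fat 1 of the 13 was higher and 2 were lower. Any link of these genes to the fall of Elovl3 was not tested. Farthest below chow, the steroid hydroxylase Cyp7b1 fell by 1.94 ± 0.09 and the organic anion transporter Slco1a1 by 1.77 ± 0.19. Among the genes called lower, Cyp4a12a, at -1.09, and Gstp1, at -0.84, came next. On the high-fat 24-week array 1 of the 2 probes of Cyp4a12a lay at a value that many probes share. The size of the gene value of Cyp4a12a therefore cannot be read. Its other probe, AGmmB051415, stood at -1.25 and -1.10 on the plain 6-week and 24-week arrays. On the high-fat ones it stood at -1.41 and -1.12, with a mean of -1.22. The probe of Serpina1e, also on the list, lay at a shared value on at least 1 array. The genes whose 4 values lay closest to those of Elovl3 were Calcb, Krtap17-1, Ammecr1, Btbd11 and Vmn1r179, at root mean square distances of 0.36 to 0.46 (log2) over 4 arrays. No spot intensities were used, so whether these genes were expressed in the liver RNA cannot be read. A shared regulation was not tested. Both limits also hold for the closest genes of Scd1 and Thrsp below.

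Scd1, the main stearoyl-CoA desaturase of liver, stood at 0.19 and 1.14 on the plain 6-week and 24-week arrays and at 1.14 and 1.10 on the high-fat 6-week and 24-week arrays. The plain 6-week array was the low one; the other 3 lay within a narrow range. Scd1 ranked 63rd from the top on the high-fat 6-week array, 196th on the plain 24-week array and 100th on the high-fat 24-week array, but 4579th on the plain 6-week array. Its mean rose by 0.89 ± 0.17 (adjusted p = 0.0261), or 1.85-fold. Without the plain 6-week array the mean was 1.12 (adjusted p = 0.00343). The call ended without any other array: adjusted p was 0.129 without the plain 24-week array, 0.0721 without the high-fat 6-week array and 0.0667 without the high-fat 24-week array. The 5 genes with the closest values were Krtap19-9b, Rerg, Ctsd, Csta2 and Col3a1, at distances of 0.19 to 0.25.

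Fasn builds palmitate. Its gene value was 0.30, 0.27, 0.33 and 0.28 on the plain 6-week, plain 24-week, high-fat 6-week and high-fat 24-week arrays, and its mean of 0.29 ± 0.08 did not pass (adjusted p = 0.0531). The 2 probes disagreed. Probe AGmmA040602 lay between 0.52 and 0.73 and passed on its own at 0.62 ± 0.09 (adjusted p = 0.00904 over all probes), while probe AGmmB211314 lay between -0.08 and 0.03. The narrow range of the gene value is therefore an average of a probe that was above chow on every array and one near 0 throughout.

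The gene value of Me1, the cytosolic malic enzyme, which makes NADPH, lay below chow on all 4 arrays, at -0.89 and -0.53 on the plain 6-week and 24-week arrays and at -0.41 and -0.09 on the high-fat ones. Its mean of -0.48 ± 0.13 did not pass (adjusted p = 0.0653), whereas the median of its probes did, at -0.59 (limma, adjusted p = 0.0448). Of its 3 probes, AGmmB100711 passed on its own at -0.59 ± 0.14 (adjusted p = 0.0471 over all probes), while AGmmB190517 at -0.54 ± 0.22 and AGmmB220812 at -0.32 ± 0.12 did not (adjusted p = 0.163 and 0.136). Probe AGmmB190517 stood at 0.093, above chow, on the high-fat 24-week array. Acly, which supplies acetyl-CoA, showed no common direction: it stood at 0.10 and 0.51 on the plain 6-week and 24-week arrays and at 0.08 and -0.34 on the high-fat ones, with a mean of 0.09 ± 0.14 (adjusted p = 0.694). For Thrsp, Scd2, Fads1, Fads2 and Elovl6 the adjusted p lay between 0.228 and 0.936.

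The second comparison asked what differed with added fat, as the high-fat minus the plain array within each duration. Across probes, Pearson r was 0.83 between the 2 high-fat arrays and 0.73 between the 2 plain arrays. Between arrays of different diets it ran from 0.39 to 0.57. Log2 ratios had an SD of 0.53 and 0.46 on the plain 6-week and 24-week arrays. On the high-fat ones it was 0.37 and 0.39. With 1 array per condition, a technical difference between plain and high-fat arrays cannot be told apart from added fat. Of the 10 members, 3 were higher with added fat and 0 lower; among all genes 3.72% were higher and 7.10% lower. The median difference of the members was 0.46, beside -0.07 for all genes. In 6 of 10 members (Me1, Thrsp, Scd2, Fads1, Fads2 and Elovl6) both high-fat arrays lay above both plain arrays, a pattern found in 25.0% of all genes. With the arrays scaled to a common spread this held for 7 of 10 members, with Fasn and Scd1 in and Me1 out, and for 24.5% of all genes. Unscaled, both high-fat arrays lay below both plain arrays in 1 of 10 members, Acly, and in 4926 of 13544 genes. All 3 calls rest on a model with 1 residual degree of freedom, the change of the added-fat difference between durations. Limma added 6.28 prior degrees of freedom, so the SEs rest mostly on a spread shared by all genes. They do not measure differences between mice. In this model duration is a term. Without that term no gene of 13544 was called by limma (3758 had an unadjusted p under 0.05), and the adjusted p was 0.0997 for Thrsp, 0.0751 for Scd2 and 0.0767 for Fads2.

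**Figure D2:**
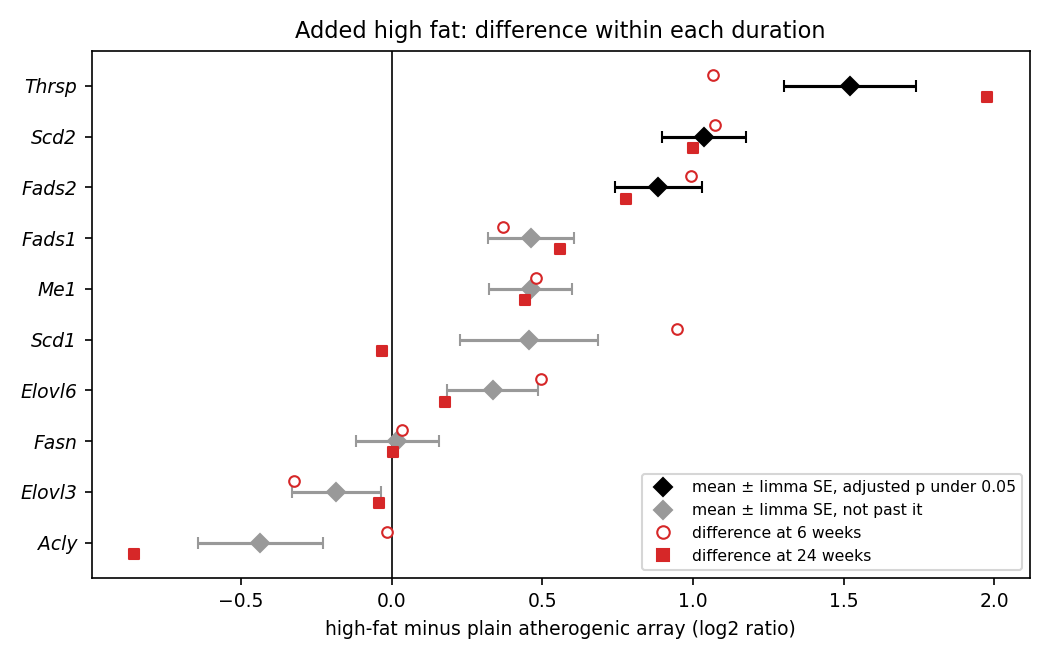
High-fat minus plain log2 ratio (x axis) of each member (rows): circles at 6 weeks, squares at 24 weeks, diamonds their mean with the limma SE, black where the adjusted p was under 0.05. Thrsp, Scd2 and Fads2 are the 3 black diamonds; both durations of Scd2 lie near 1, while the 2 differences of Scd1 and of Acly lie far apart.

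Thrsp (Spot 14) is a nuclear and cytosolic protein induced with lipogenesis. It stood at -0.18 and 0.04 on the plain 6-week and 24-week arrays and at 0.88 and 2.01 on the high-fat 6-week and 24-week arrays. Both plain values were near chow and both high-fat values well above it; on the high-fat 24-week array Thrsp ranked 18th from the top of 13544 genes. The difference was 1.07 at 6 weeks and 1.98 at 24 weeks, with a mean of 1.52 ± 0.22 (limma SE; adjusted p = 0.0201), or 2.87-fold. Ehd1, Olfr444, Cyp2b19, Rnase4 and Olfr32 had the closest values over the 4 arrays, at distances of 0.46 to 0.50.

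Scd2, the stearoyl-CoA desaturase that is most active in brain and in early life, lay below chow without added fat and above it with added fat. It stood at -0.82 and -0.77 on the plain 6-week and 24-week arrays and at 0.25 and 0.23 on the high-fat ones. The 2 arrays of a diet differed by 0.05 at most, and the diets did not overlap. The difference was 1.07 at 6 weeks and 1.0 at 24 weeks, with a mean of 1.04 ± 0.14 (adjusted p = 0.0181), or 2.05-fold. Its relative Scd1 differed by 0.95 at 6 weeks and by -0.03 at 24 weeks, and its mean of 0.46 ± 0.23 did not pass (adjusted p = 0.207).

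Fads2, the delta-6 desaturase that opens the polyunsaturated pathway, stood at -0.82 and -0.50 on the plain 6-week and 24-week arrays and at 0.17 and 0.27 on the high-fat ones. As with Scd2, both plain arrays were below chow and both high-fat arrays above it. The difference was 0.99 at 6 weeks and 0.78 at 24 weeks, with a mean of 0.89 ± 0.14 (adjusted p = 0.0217), or 1.85-fold.

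Fads1, the delta-5 desaturase that acts after Fads2, had gene values of -0.39 (6 weeks) and -0.12 (24 weeks) on the plain arrays, against -0.018 and 0.44 with added fat. Its mean difference was 0.46 ± 0.14 (adjusted p = 0.0743). Here too the probes disagreed. Probe AGmmA190114 was higher with added fat by 0.87 ± 0.14 (adjusted p = 0.0202 over all probes), close in size to Fads2, whereas probe AGmmB060424 differed by 0.05 ± 0.14 (adjusted p = 0.813).

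Me1 was higher with added fat by 0.48 at 6 weeks and 0.44 at 24 weeks, with a mean of 0.46 ± 0.14 (adjusted p = 0.0705). With the median of its probes in place of their mean it passed, at 0.55 (limma, adjusted p = 0.0402). Of its 3 probes, AGmmB190517 differed by 1.01 ± 0.14 (adjusted p = 0.0162 over all probes) and AGmmB100711 by 0.55 ± 0.14 (adjusted p = 0.0435). The remaining probe, AGmmB220812, differed by -0.17 ± 0.14 (adjusted p = 0.405). Thus 2 probes passed in 1 direction and 1 lay on the other side of 0.

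**Figure D3:**
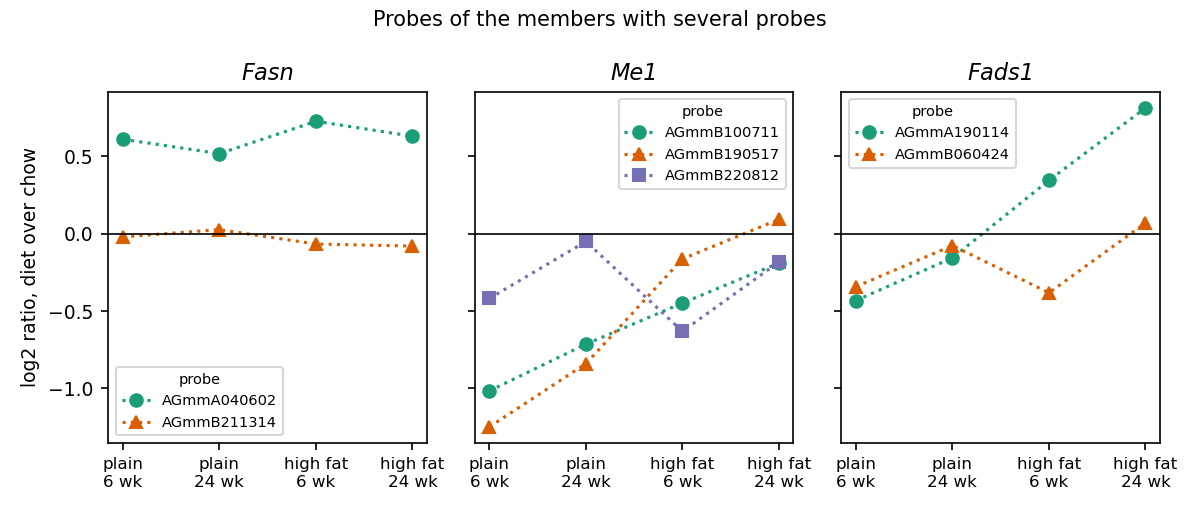
Log2 ratio of diet over chow (y axis) on the 4 arrays (x axis) for each probe of Fasn, Me1 and Fads1, with 1 colour and marker per probe; dotted lines only join the points of a probe. The probes of Me1 lie closer together on the high-fat than on the plain arrays, and those of Fads1 farther apart. The 2 probes of Fasn run level at different heights.

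Elovl6, which extends palmitate to stearate, stood at -0.29 (6 weeks) and -0.12 (24 weeks) without added fat and at 0.20 and 0.056 with it. Its mean difference of 0.34 ± 0.15 did not pass (adjusted p = 0.168). Acly differed by -0.017 at 6 weeks and by -0.85 at 24 weeks (mean -0.44 ± 0.21, adjusted p = 0.191). Fasn differed by 0.02 ± 0.14 (95% interval -0.30 to 0.34, adjusted p = 0.936), and its sign turned when each array's median was set to 0. Elovl3 differed by -0.18 ± 0.15 (adjusted p = 0.422); with the arrays scaled to a common spread it was lower with added fat by 1.41 on the log2 scale (adjusted p = 0.0145).

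Promoter sequence was available for 6 of the members, in 7 windows of 250 bases before a transcription start (RefSeq, GRCm38.p6). The windows of Thrsp and Fads2, both called higher with added fat, and of Fasn, which was not, are shown with the letters CCAAT, a site bound by the factor NF-Y, in capitals on either strand. They lie at chr7:97417551-97417800, chr19:10101504-10101753 and chr11:120824548-120824797, all on the minus strand, and read 5′ to 3′ toward the gene.
Thrsp: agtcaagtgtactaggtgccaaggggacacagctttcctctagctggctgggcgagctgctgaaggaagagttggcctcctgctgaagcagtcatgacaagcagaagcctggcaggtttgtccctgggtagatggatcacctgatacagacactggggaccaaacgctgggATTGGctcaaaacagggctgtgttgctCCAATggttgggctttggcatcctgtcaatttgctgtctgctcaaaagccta
Fads2: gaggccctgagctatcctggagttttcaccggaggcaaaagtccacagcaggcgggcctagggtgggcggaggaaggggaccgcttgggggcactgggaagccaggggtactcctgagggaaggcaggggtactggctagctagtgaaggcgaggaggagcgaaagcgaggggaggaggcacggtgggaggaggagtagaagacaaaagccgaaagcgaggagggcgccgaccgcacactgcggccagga
Fasn: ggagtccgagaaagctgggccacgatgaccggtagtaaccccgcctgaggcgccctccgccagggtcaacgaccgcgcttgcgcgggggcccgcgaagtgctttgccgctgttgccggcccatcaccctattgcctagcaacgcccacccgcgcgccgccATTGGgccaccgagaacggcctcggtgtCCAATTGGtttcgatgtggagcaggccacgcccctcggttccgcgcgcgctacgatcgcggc
Thrsp held 2 such matches, whose first bases lay 79 and 52 bases before the start, and Fasn held 3, at 90, 62 and 59 bases, the last 2 of which overlap. The Fads2 window held 0. Among all 32851 windows 33.8% held a match, and 3 of the 7 member windows did. The sterol response element core TCACNCCAC was found in 0 of the 7 member windows and in 1.05% of all windows, and the E-box CACGTG in 0 and 6.02%. The search covered both strands. These letters are a description of the windows only.

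The third comparison asked what differed between 24 and 6 weeks. No member passed, as for all genes (0 called by limma, or 0%, with 1328 of 13544 at an unadjusted p under 0.05, among them 4 of the 10 members). The 4 were Elovl3, Thrsp, Fads1 and Me1. Elovl3 was lower at 24 weeks by 0.88 on the plain diet and 0.60 on the high-fat diet, with a mean of -0.74 ± 0.15 (adjusted p = 0.269). Thrsp was 0.67 ± 0.22 higher (adjusted p = 0.404), with 0.22 on the plain and 1.13 on the high-fat diet. Fads1 at 0.37 ± 0.14 and Me1 at 0.34 ± 0.14 had adjusted p-values of 0.474 and 0.493. Scd1 was 0.95 higher at 24 weeks on the plain diet and 0.03 lower on the high-fat diet.

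Other genes of the pathway were read from lists that group them by role. In carbon and NADPH supply, 0 of 14 measured genes passed in either comparison of diets, with medians of -0.010 for diet over chow and 0.10 for added fat. The pentose phosphate enzyme Tkt, at 0.42 ± 0.12, and the acetyl-CoA synthetase Acss2, at -0.40 ± 0.16, had the largest means over chow. Acss2 was 0.58 ± 0.15 higher with added fat (adjusted p = 0.0507).

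Among 10 partners of carboxylation and synthesis, 1 was lower than chow and 0 higher. This was the acyl-CoA synthetase Acsl5, which fell by 0.54 ± 0.09 (adjusted p = 0.0178). The thioesterase gene Olah was lower with added fat by 0.61 ± 0.14 (adjusted p = 0.0385), the only one of the 10 that passed. The list median was 0.044 over chow and -0.23 for added fat. Acaca, the carboxylase that makes malonyl-CoA, stood at 0.37 ± 0.11 over chow (adjusted p = 0.0689); it was singled out for its role, with its value known. Of 7 partners of desaturation 0 passed for diet over chow, and cytochrome b5, Cyb5a, the electron donor of the desaturases, was lower with added fat by 0.90 ± 0.14 (adjusted p = 0.0205). On the plain 24-week array the Cyb5a probe lay at a value that many probes share, so the size of its difference there cannot be read; on the 6-week arrays it stood at 0.44 without added fat and -0.43 with it. No probe of a member lay within 0.005 (log10) of the 1 most over-represented value of each array. Other recurring values were not checked, so this does not clear the members of them. For the pathway and marker lists the plain 6-week array was left out of the check.

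Elongation partners moved in both directions. Of 10 measured, the dehydratase Hacd4 rose over chow by 0.92 ± 0.12 (adjusted p = 0.00861), while the polyunsaturated elongase Elovl5 fell by 0.68 ± 0.16 (adjusted p = 0.0387) and the ketoacyl reductase Hsd17b12 fell by 0.47 ± 0.08 (adjusted p = 0.0189). With added fat 2 were lower and 1 higher. Elovl4, the elongase of very long polyunsaturated chains, was lower by 1.17 ± 0.15 (adjusted p = 0.0169) and Hacd1 by 0.78 ± 0.14 (adjusted p = 0.0263). Elovl2, which extends the products of Fads1, was higher by 0.68 ± 0.15 (adjusted p = 0.0386); it was singled out after its value was seen. It stood at -0.89 and -0.83 on the plain 6-week and 24-week arrays and at -0.03 and -0.34 on the high-fat ones.

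Of 17 measured regulators 0 passed in either comparison of diets. Srebf1, which encodes SREBP-1, had the largest mean over chow, 0.48 ± 0.13 (adjusted p = 0.0590), and stood at 0.20 and 0.28 on the plain 6-week and 24-week arrays and at 0.55 and 0.89 on the high-fat ones. Its difference with added fat was 0.48 ± 0.15 (adjusted p = 0.0715), and its 3 probes differed by 0.37, 0.45 and 0.63. Fgf21, at -0.31 ± 0.19 over chow, came next. The carbohydrate-response factor Mlxipl stood at 0.07 ± 0.09 over chow and differed by 0.05 ± 0.14 with added fat. It too was singled out for its role, with its values known. Its 3 probes disagreed. Probes AGmmB020119, AGmmB061208 and AGmmB071608 had means over chow of 0.50, -0.16 and -0.12, and differed with added fat by -0.16, 0.47 and -0.16.

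**Figure D4:**
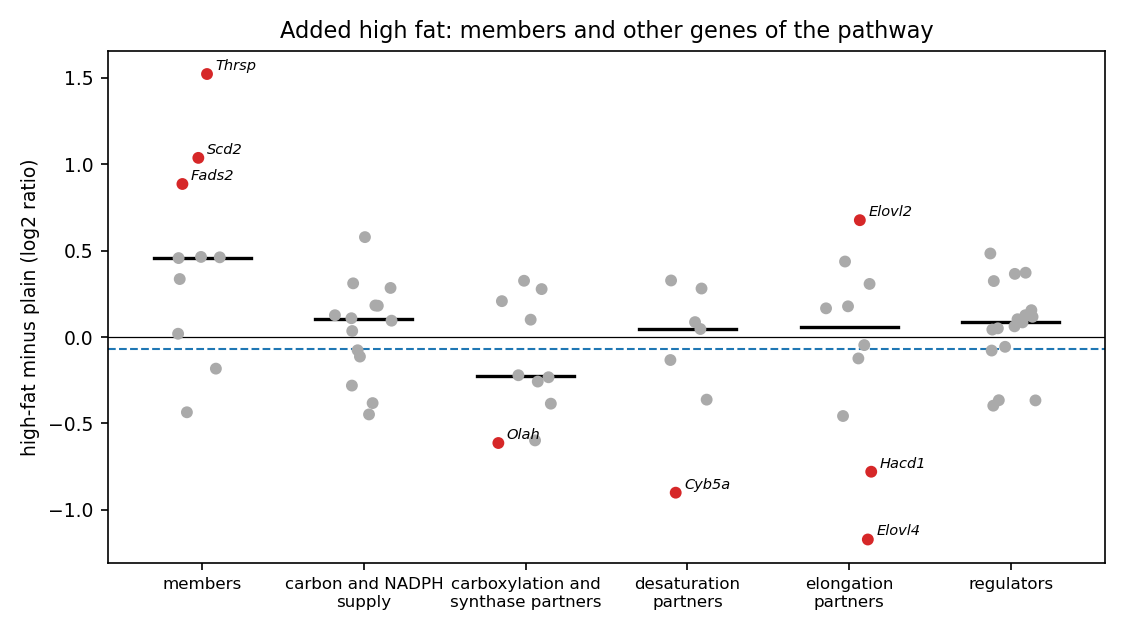
High-fat minus plain log2 ratio (y axis) of the members and of the other pathway genes by role (x axis); red points have an adjusted p under 0.05, black bars are list medians and the dashed line is the median of all genes. The members' median of 0.46 lies above those of the other lists, which range from -0.23 to 0.10, and that order was not tested.

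Sterol synthesis shares its control by SREBP factors with the members. Of 16 measured genes, 8 were lower than chow and 0 higher, with a median of -0.48; the means of the 4 farthest below chow were -1.57 for Dhcr7, -1.25 for Tm7sf2, -1.15 for Idi1 and -0.93 for Fdps. This stands beside 1 lower and 1 higher of the 10 members, and 5.80% lower and 6.27% higher among all genes. With added fat 2 of the 16, Fdps and Sc5d, were higher, by 0.71 ± 0.16 and 0.75 ± 0.14, and 0 were lower. The difference between the lists was not tested.

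Markers of other cells moved with the arrays as well. In bulk liver, fewer cells of a type and less RNA per cell cannot be told apart. Macrophage markers were higher than chow in 5 of 12 and lower in 1, and their list median was greater on the plain arrays (0.89 at 6 weeks, 0.69 at 24 weeks) than on the high-fat arrays (0.35 and 0.26). With added fat 3 of the 12 were lower and 0 higher. Stellate markers were higher than chow in 5 of 8 and lower in 1, and bile duct markers higher in 1 of 6. Adipocyte markers, which matter here because fat cells share these genes, had 1 of 9 higher than chow (Lpl) and 0 called with added fat; the list median lay between -0.08 and 0.18 on the 4 arrays. As gene values, Adipoq, Lipe, Fabp4 and Lpl stood above chow on every array. Retn, Ucp1 and Cidea stood below it on every array, and Lep and Cidec on either side. Single probes of Lipe lay below chow on some arrays. Fabp4 was the nearest to a call with added fat, at -0.50 (adjusted p = 0.0602), after 0.50 over chow (adjusted p = 0.0524). Its probes disagreed over chow, with means of 1.17 for AGmmB010621 and -0.16 for AGmmA211305. With added fat they differed by -0.65 and -0.35. Hepatocyte markers had list medians of 0.35 (6 weeks) and 0.48 (24 weeks) without added fat, against -1.10 and -0.71 with it, and 5 of 8 were lower with added fat. The 5 called lower (Alb, Ttr, Fgb, Serpina1a and Ahsg) are the same 5 whose probes carried, on at least 1 array, a value that recurs in excess, so the size of their differences and of the list medians cannot be read. The other 3 were not called, at -0.063 for Apoa1, -0.46 for Apoh and 0.23 for Hnf4a with added fat. The part of these shifts in the members' values was not tested.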

How the data were processed

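Amplified RNA, per the labels, was measured on 30K AceGene mouse oligonucleotide arrays; per the submitters' design text these were scanned on an Agilent G2505B scanner, read with GenePix Pro 4.1, and normalized by the LOWESS method in GeneSpring 7.2. The deposited values are log ratios, taken as log10 of diet over chow; not given in the sources used here are base, background correction and centring beyond LOWESS, and no spot intensities were used. Deposited medians were -0.019 and -0.005 on the plain 6-week and 24-week arrays and 0.006 on both high-fat arrays. Values were turned into log2. Probes with a value on all 4 arrays were kept (27870 of 28845). The platform annotation gave 1 symbol for 17637 probes and several for 64, and did not list 11144; symbols were updated by gene identifier to RefSeq GRCm38.p6, and 252 probes that did not match were left unnamed.

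Limma 3.58.1 in R 4.3.3 was fitted on the means of all 13544 genes (two-sided, Benjamini-Hochberg over all genes, threshold 0.05): the mean of 4 arrays against 0 (3 residual degrees of freedom), and added fat and duration as terms of an additive model (1 residual degree of freedom). Probe values come from the same fits over all probes. Precision is limited by the number of arrays. Members and lists were chosen with earlier results of these data known. Named besides the members were, from each pathway list, up to 4 genes past the threshold over chow and up to 2 for added fat by size, or 2 as values where none passed; Acaca, Mlxipl, Elovl2 and some cell markers lie outside this rule and were chosen with their values known. Not every gene that this rule takes from the male-biased and cell marker lists is printed. Alternatives were centring, a common spread, other summaries of probes, robust eBayes, missing values allowed, other models and thresholds, and leaving out arrays. Protein sequences were not used here.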

Additional observations from a re-analysis of the deposited data

Results flagged for a closer look

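For Thrsp, Scd2 and Fads2 the difference between the diets passed in limma, at 1.52, 1.04 and 0.89 (adjusted p = 0.0201, 0.0181 and 0.0217), within the limit that the call needs the duration term. For Scd2, Fads2 and Elovl6 both plain arrays lay below chow and both high-fat arrays above it. Elovl6 is listed here for that split alone: its difference, 0.34, did not pass (adjusted p = 0.168). Me1 and Fads1 had larger differences that, as means of probes, did not pass either. Their values did not lie on opposite sides of chow in this way.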

How the results depend on the processing

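Of the calls of members, that of Elovl3 over chow held in 14 of 14 alternatives fitted and that of Scd1 in 11 of 14. Those of Thrsp, Scd2 and Fads2 with added fat held in 8 of 9 each, all but the fit without duration. All of these genes have 1 probe each, so other summaries of probes left their values unchanged. A threshold of 0.1 could not end a call. Such alternatives count among those held and are no separate support. The number of genes called over chow, 1634, was 2880 on all probes, 2896 at an adjusted p of 0.1, 4447 with duration as a random block and 5132 with diet and duration terms. The correlation within that random block was estimated at -0.466, and a negative value makes the SE of the mean smaller. Leaving out an array gave 284 (without the plain 24-week array) to 1169 genes, and 793 and 753 without the high-fat 6-week and 24-week arrays. The members called over chow, 2, were 4 with a common spread, with the largest probe, at 0.1, with the random block and on all probes. They were 3 with the median of probes, where Me1 passed, 7 with both terms, and 1 to 2 without an array. With added fat 1466 genes became 3177 at 0.1, 4411 on all probes and 0 without the duration term, and 3 members became 5, 5 and 0. The members were 4 with the median of probes, where Me1 passed, and 4 with a common spread, where Elovl3 passed as lower. Higher genes made up 34.4% of the 1466 calls, and 23.9% of the calls with each array's median at 0. With duration, 0 genes were called under every alternative; without the diet term 260 had an unadjusted p under 0.05.

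Signs turned mostly for values near 0, and for single probes of Fasn, Fads1 and Me1. Over chow, Fads1 and Elovl6 were 0.0384 and 0.000903 with a common spread; without an array Fads1 ran from -0.17 to 0.10, Elovl6 from -0.12 to 0.047 and Acly from -0.052 to 0.23; single probes of Fasn and Fads1 were -0.035 and 0.14. With added fat Fasn was -0.034 after centring and -0.076 on 1 probe, and Me1 -0.17 on 1 probe. For duration Scd2 and Elovl6 were -0.0066 and -0.010 after centring and -0.043 and -0.035 with a common spread, and a probe of Fasn 0.017. The cause was not tested. Leaving out an array for added fat or duration leaves no residual degree of freedom, so no such fit was made. Replicates could not be paired, because each condition has 1 array and the labels give no replicate numbers. For added fat, the arrays of 1 duration were paired through the duration term.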
